A study of Bos taurus with 6 samples.

Results

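The microRNAs (miRNAs) that lie inside the HOX gene clusters were examined in cultured bovine fat cells. The members are the rows for bta-miR-10a, bta-miR-10b, bta-miR-196a, bta-miR-196b and bta-miR-615 (bta for Bos taurus, a prefix left out below), chosen by name, which gave 5 of the 771 known miRNA rows and 5 of the 2213 rows of the table. All 5 had reads in every library and all 5 passed the filter on low counts. In the table the row of miR-10a is typed hairpin and the other 4 are typed mature, a distinction that is not explained in the sources used here. No row gave a second arm for any of them.

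Small RNA from 3 adipocyte and 3 preadipocyte samples was sequenced. Preadipocytes are cells already committed to become fat cells. The labels give all 6 samples the Holstein breed, adipose tissue as source and passage 4-6, and their protocol describes culture in F12/DMEM medium (10% fetal bovine serum, 1% antibiotics), and induction of preadipocytes with insulin, dexamethasone, rosiglitazone and IBMX, a mixture that drives fat cell differentiation. This protocol text is the same for both groups, so it does not say which samples were induced. The groups here follow the cell type labels, and the sample titles (b_AD and b_PAD) divide the samples in the same way. The length of induction, the number of animals and the fat depot are not stated in the labels. They do not tie replicates to separate animals or cultures, so a p-value here speaks only of the spread over these libraries, and that spread may be technical.

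HOX genes encode transcription factors that give cells their position along the body axis, and fat cells from different depots keep different HOX patterns in culture. The clusters also hold miRNA genes, which act on messenger RNAs, HOX messages among them. Members of the miR-10 pair lie next to the group 4 HOX genes and are near-identical to each other, with the same seed (the bases that pair with targets). The miR-196 genes lie next to the group 9 HOX genes. In mouse and human cells miR-196 cuts the message of HOXB8, and in mouse white fat precursors miR-196a was described as favouring brown fat genes by acting on Hoxc8. miR-615 lies in an intron of HOXC5.

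In RefSeq's genes of assembly ARS-UCD2.0, used for names and neighbours only because the build behind the counts is not given in the sources used here, 6 genes matched the 5 members. MIR10A lies within the span of HOXB3, between HOXB5 and HOXB4, and MIR10B lies within the span of HOXD4. MIR196B lies between HOXA10 and HOXA9, inside a protein-coding gene named only by a locus number. Both MIR196A-1, within the span of HOXB9, and MIR196A-2, between HOXC9 and HOXC10, give the same mature miR-196a, so the single miR-196a row cannot tell the HOXB copy from the HOXC copy. MIR615 lies within the span of HOXC5. The 5 rows thus stand for all 4 HOX clusters.

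The table held 19292757 to 25801117 reads per library, of which 14525284 to 22283754 belonged to known and predicted miRNAs. In adipocytes miR-21-5p alone made up 64.0% to 74.1% of these miRNA reads, and in preadipocytes 77.9% to 80.2%. Levels are therefore given on a pair of scales. The first is RPM, reads per 1000000 miRNA reads, which is a plain share. The second is CPM, counts per 1000000 after scaling with the TMM factors of edgeR, which are set so that most miRNAs do not differ between libraries; these factors were 1.02 to 1.40 in adipocytes and 0.734 to 0.846 in preadipocytes. Reads in the exon, intron, intergenic and repeat rows were 5.29% of the table in preadipocyte replicate 3, 18.5% and 18.9% in preadipocyte replicates 1 and 2, and 8.21% to 12% in adipocytes. Their part in the results below was not tested.

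The labelled cell types were set against lists of miRNAs for the cells a culture of this kind could hold, by summed RPM. All 6 miRNAs listed for adipocytes had reads, and their sum was 5947 to 11841 in adipocytes and 1837 to 3448 in preadipocytes. In every library miR-378 held the most reads of the 6. On the TMM scale the log2 difference, adipocytes over preadipocytes, was 1.68 for miR-148a, 1.24 for miR-107, 0.88 for miR-103 and -0.05 for miR-193b. The groups overlapped for miR-378 on this scale, where preadipocyte replicate 2 (42136 reads) lay above adipocyte replicate 1 (61558 reads). Reads of miR-33b were uneven, at 959, 1276 and 61 in adipocyte replicates 1, 2 and 3, against 13, 5 and 14 in the preadipocyte replicates. As RPM, 38.6% of the 414 tested miRNAs were higher in every adipocyte library than in any preadipocyte library. The 6 listed for mesenchymal cells summed to 697029 to 784086 in adipocytes and 811732 to 836066 in preadipocytes, and most of this was miR-21-5p. Without miR-21-5p the sum of the other 7 rows of that list lay in the opposite order, at 43509.6 to 57011 in adipocytes and 23146 to 34512 in preadipocytes. These 7 rows did not move together on the TMM scale. Log2 differences were 8.70 for miR-199a-3p, 3.15 for miR-199b, 0.67 for miR-21-3p and 0.47 for miR-199a-5p. They were -0.09 for miR-214, -0.32 for miR-143 and -1.64 for miR-145. The endothelial miR-126 was at 44.9 to 91.1 in adipocytes and 95.4 to 334 in preadipocytes. The sum of 5 blood miRNAs was 0.728 to 1.53 in adipocytes and 1.39 to 4.13 in preadipocytes, and that of 5 epithelial ones was below 1 in every library. The sum of 4 skeletal muscle miRNAs was 21.1 to 34.6 in adipocytes and 17.8 to 38.8 in preadipocytes, and that of miR-9, the only 1 of 3 neural miRNAs with a row, was 4.29 to 7.52 in adipocytes and 5.03 to 7.40 in preadipocytes. Whether these cells add to the HOX miRNA reads was not tested.

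Together the 5 HOX cluster miRNAs made up 0.278% ± 0.0367 of miRNA reads in adipocytes, against 0.130% ± 0.0184 in preadipocytes (SD, n = 3 each). As shares, all 4 of miR-10a, miR-10b, miR-196a and miR-196b were higher in every adipocyte library than in any preadipocyte library, while miR-615 overlapped. Non-overlap in this direction was common, at 38.6% of the 414 tested miRNAs. On the TMM scale miR-196a and miR-196b remained apart, at a background of 24.2% of miRNAs, and miR-10a and miR-10b overlapped. In bulk RNA, fewer cells of a type and less RNA per cell cannot be told apart.

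**Figure D1:**
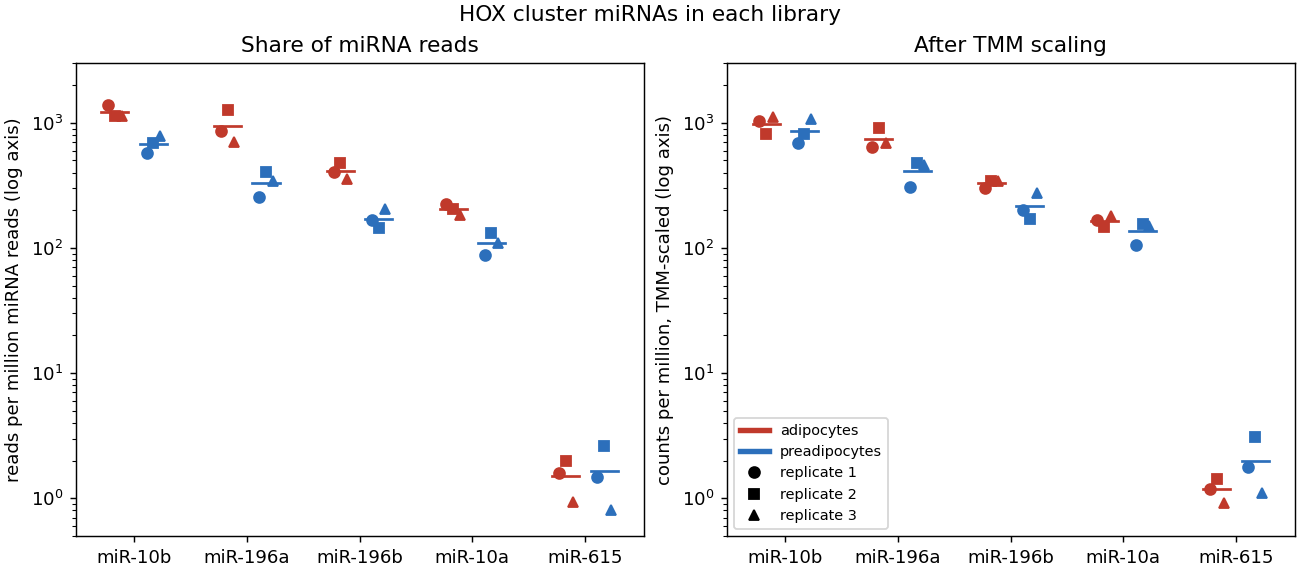
The level of each HOX cluster miRNA in each library, as RPM of miRNA reads (left) and TMM-scaled CPM (right), both on log axes, with adipocytes in red and preadipocytes in blue, symbols for replicates and a bar for the group mean (n = 3). The groups are apart for 4 of the 5 miRNAs on the left and for miR-196a and miR-196b on the right.

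The level order was miR-10b, miR-196a, miR-196b, miR-10a and miR-615 by group means on the TMM scale in both cell states. Mature miRNAs are of nearly equal length, so CPM compares them without a length correction, although ligation during library preparation favours some sequences over others. This reason does not cover the place of miR-10a in the order, since its row is typed hairpin. In adipocytes miR-10b (811 to 1105 CPM) and miR-196a (642 to 908 CPM) overlapped, and in adipocyte replicate 2 miR-196a was the higher of the pair. In preadipocytes miR-10b (687 to 1069 CPM) was above miR-196a (305 to 475 CPM) in every library. The steps from miR-196a to miR-196b and from miR-196b to miR-10a showed no overlap in either cell state. By level among the 414 tested miRNAs, miR-10b ranked 40 to 48 in adipocytes and 35 to 42 in preadipocytes, and miR-10a ranked 83 to 100 in adipocytes and 84 to 100 in preadipocytes.

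The comparison the design asks for, adipocytes against preadipocytes, was tested with edgeR's quasi-likelihood test over all 414 known and predicted miRNAs that passed the filter. With Benjamini-Hochberg (BH) adjustment over these, 0 of the 5 HOX cluster miRNAs passed an adjusted p of 0.05, against 26 of all tested miRNAs, a background of 6.28%. Without adjustment, 1 of the 5 had a p below 0.05, against 34.1% of all tested miRNAs; DESeq2 called 1 of the 5, at a background of 22% of its 528 miRNAs with an adjusted p. Estimates were positive for 4 of the 5, and for 50% of all. The median log2 difference was 0.26 over the 5 and -0.02 over all tested miRNAs.

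Of the HOXB and HOXC miRNA miR-196a, adipocyte replicates 1, 2 and 3 held 861, 1269.8 and 706 RPM, and the preadipocyte replicates held 256, 402 and 339.8. After TMM scaling the levels were 642, 908 and 690.2 CPM in adipocytes, against 305, 475 and 463 CPM in preadipocytes. The lowest adipocyte library was above the highest preadipocyte library on both scales. The means were 747 ± 142 CPM in adipocytes, against 414 ± 94.7 CPM in preadipocytes (SD, n = 3 each), a log2 difference of 0.85 (SE 0.29, 95% interval 0.16 to 1.54). It had the smallest p of the 5 in edgeR's test, at 0.0224 before and 0.0955 after BH adjustment, which missed the threshold. With DESeq2, which was run without the low-count filter, the difference was 0.89 and its BH-adjusted p of 0.0392 passed.

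The HOXA miRNA miR-196b was at 403, 479.6 and 353 RPM in adipocytes and 167, 145 and 203 in preadipocytes. On the TMM scale it was at 300.1, 343 and 345 CPM in adipocytes, against 199, 171 and 276 CPM in preadipocytes. No adipocyte library reached down to the preadipocyte range, and the closest preadipocyte library was replicate 3. The means were 329 ± 25.4 CPM in adipocytes, against 216 ± 54.4 CPM in preadipocytes (SD, n = 3 each). The log2 difference was 0.61 (SE 0.28, 95% interval -0.06 to 1.28, edgeR BH-adjusted p = 0.17). Without preadipocyte replicate 3 it reached 0.83, which passed with a BH-adjusted p of 0.0472 in edgeR, the only call among the 5 HOX cluster miRNAs when single libraries were left out, in a fit that called 31.8% of all miRNAs. Without adipocyte replicate 3 it was 0.40 (edgeR BH-adjusted p = 0.442).

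The HOXD miRNA miR-10b was at 1383, 1133 and 1130.0 RPM in adipocytes and 576, 684 and 785 in preadipocytes, so that the groups did not overlap as shares. After TMM scaling they did, at 1031, 811 and 1105 CPM in adipocytes, against 687, 809.8 and 1069 CPM in preadipocytes. The log2 difference was 0.20 (SE 0.27, 95% interval -0.44 to 0.84, edgeR BH-adjusted p = 0.606). An interval of this width leaves room for a moderate difference in either direction.

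The HOXB miRNA miR-10a followed the same pattern at a lower level. It was at 223, 204 and 183 RPM in adipocytes and 88.6, 131 and 109.9 in preadipocytes. After TMM scaling it was at 166, 146 and 179 CPM in adipocytes, against 106, 155 and 149.6 CPM in preadipocytes, where adipocyte replicate 2 lay within the preadipocyte range. The log2 difference was 0.26 (SE 0.28, 95% interval -0.41 to 0.93, edgeR BH-adjusted p = 0.524). Without adipocyte replicate 3 the differences of both miR-10 miRNAs turned negative, to -0.0061 for miR-10a and -0.090 for miR-10b, and neither passed the threshold.

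The HOXC5 intron miRNA miR-615 was detected at a low level. Adipocyte replicates 1, 2 and 3 held 24, 30 and 18 reads, and the preadipocyte replicates held 26, 38 and 18. As shares these were 1.60, 1.99 and 0.941 RPM in adipocytes and 1.49, 2.62 and 0.808 in preadipocytes. The groups overlapped, and replicate 3 was the lowest of its group in both cell states. The exact 95% Poisson interval of a single library was as wide as 10.7 to 28.4 reads at a count of 18, which covers counting error only. The log2 difference on the TMM scale was -0.75 (SE 0.48, 95% interval -1.90 to 0.40, edgeR BH-adjusted p = 0.289), or -0.30 without preadipocyte replicate 2, which held the most reads. With library totals in place of TMM it was -0.11.

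**Figure D2:**
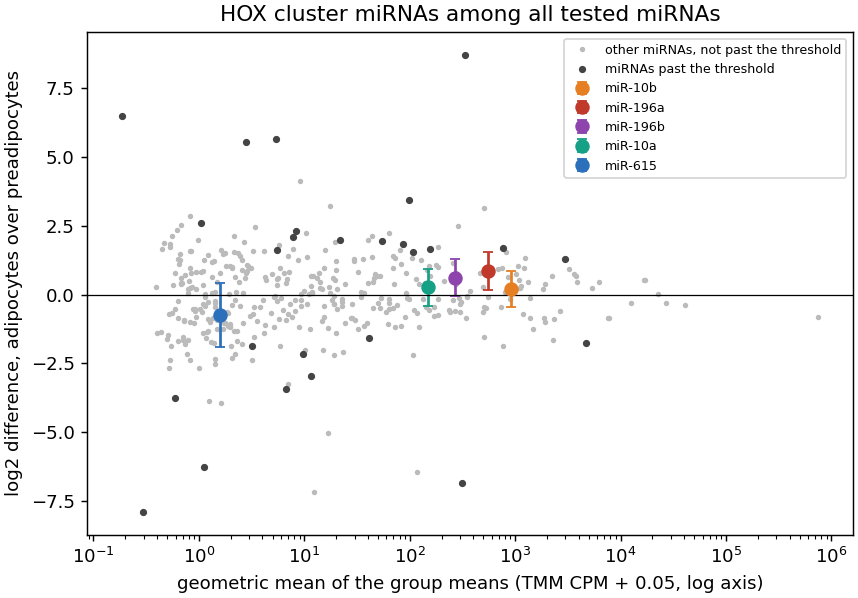
Log2 difference of adipocytes over preadipocytes against mean level (geometric mean of the group means, TMM CPM with 0.05 added, log axis) for the 414 tested miRNAs, with miRNAs past the edgeR threshold in dark grey and the HOX cluster miRNAs in colour with 95% intervals. The interval of miR-196a lies above 0 before adjustment, and those of the other 4 HOX cluster miRNAs include 0.

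Among all tested miRNAs the log2 difference of miR-196a was higher than that of 75.6% and that of miR-196b higher than that of 67.9%. For miR-10a and miR-10b these shares were 58.0% and 54.8%, and for miR-615 27.8%.

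The size of each difference depended on how libraries were scaled, and so did the call. With the library totals of the miRNA rows and no factors, 2 of the 5 passed, miR-196a at 1.51 and miR-196b at 1.26 (edgeR BH-adjusted p = 0.0268 for both), at a background of 23.4% of miRNAs. The median of all miRNAs was then 0.62. With the totals behind the deposited TPM the same 2 passed, at a background of 21.7%, and with limma on the deposited TPM miR-10a passed as well, at a background of 25.6%. When all 948 small RNA rows with enough reads were fitted together with edgeR, 0 of the 5 passed and 2 had an unadjusted p below 0.05, against 3.48% and 28.7% of these rows. With upper-quartile factors the median of all miRNAs was -0.31, and miR-10a (-0.030) and miR-10b (-0.079) turned negative. Relative to the median of all miRNAs, the differences over 6 scalings were 0.85 to 0.90 for miR-196a, 0.62 to 0.67 for miR-196b, 0.26 to 0.30 for miR-10a, 0.20 to 0.24 for miR-10b and -0.77 to -0.71 for miR-615. A change of scaling shifts all miRNAs by about the same amount and subtracting the median removes that shift, so the narrowness of these ranges follows from the construction.

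**Figure D3:**
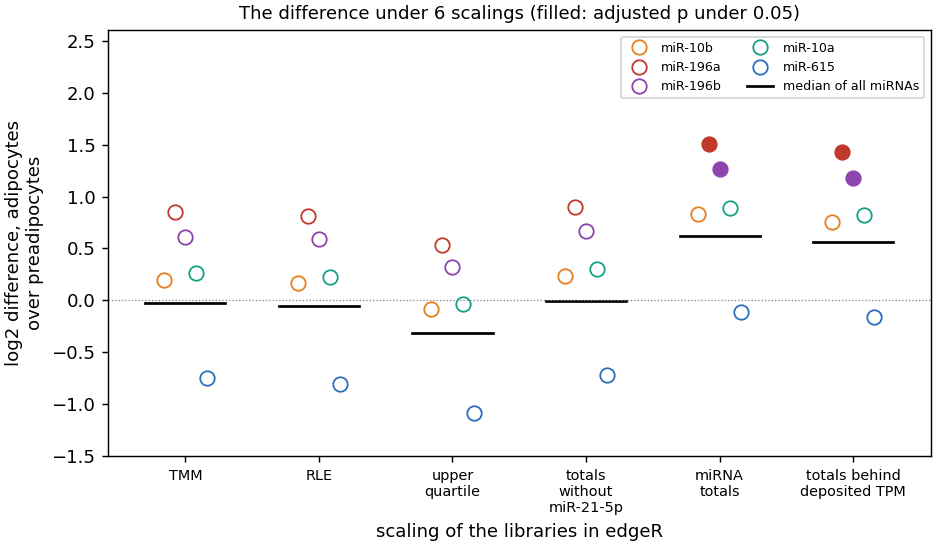
Log2 difference of each HOX cluster miRNA, adipocytes over preadipocytes, under 6 scalings of the libraries in edgeR, with filled symbols for an adjusted p under 0.05 and a black bar for the median of all tested miRNAs. The coloured symbols move up and down with the bar, and miR-196a and miR-196b pass with the miRNA totals and with the totals behind the deposited TPM.

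Ratios between HOX cluster miRNAs within a library need no scaling. The balance within each near-identical pair did not separate the cell states. For the miR-10 pair the ratio sets a row typed hairpin against a row typed mature. How reads matching both miRNAs of a pair were assigned is not stated in the sources used here. The ratio of miR-10a to miR-10b reads was 0.161, 0.180 and 0.162 in adipocytes and 0.154, 0.191 and 0.140 in preadipocytes, and the groups overlapped (two-sided exact permutation p = 0.8, BH-adjusted 0.8). The ratio of miR-196a to miR-196b reads was 2.14, 2.65 and 2.00 in adipocytes and 1.53, 2.77 and 1.67 in preadipocytes, which also overlapped (exact permutation p = 0.5, BH-adjusted 0.667). Replicate 2 had the highest value of its group in both ratios and both cell states. On the log2 scale the differences were 0.06 and 0.22, with SDs of 0.09 in adipocytes and 0.23 in preadipocytes for the first and of 0.21 in adipocytes and 0.46 in preadipocytes for the second. Leaving out single libraries moved the first to between -0.033 (without preadipocyte replicate 3) and 0.19 (without preadipocyte replicate 2), and the second to between 0.059 (without preadipocyte replicate 1) and 0.49 (without preadipocyte replicate 2).

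The miR-196 pair stood higher against the miR-10 pair in adipocytes. The ratio of summed miR-196a and miR-196b reads to summed miR-10a and miR-10b reads was 0.787, 1.31 and 0.806 in adipocytes and 0.637, 0.670 and 0.606 in preadipocytes. All 3 adipocyte libraries were above all 3 preadipocyte libraries, a log2 difference of 0.56, or 0.32 without adipocyte replicate 2. The exact permutation p was 0.1, the smallest that 3 libraries against 3 can give, and 0.4 after BH adjustment over the 4 ratios computed. This ratio was chosen after the values were seen.

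**Figure D4:**
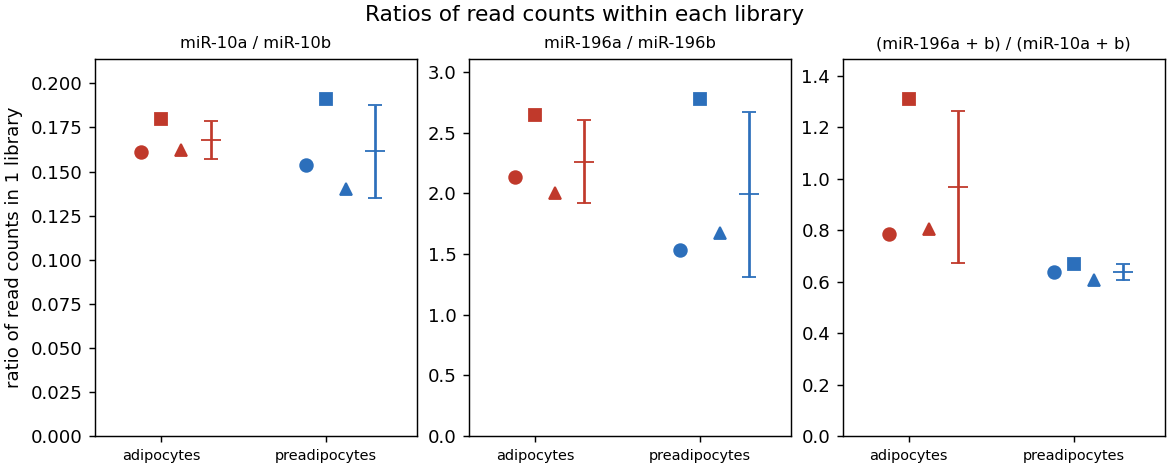
Ratios of read counts within each library, with adipocytes in red and preadipocytes in blue, circle, square and triangle for replicates 1, 2 and 3, and mean ± SD beside them (n = 3). The groups overlap for both paralog ratios and are apart for the ratio of the miR-196 pair to the miR-10 pair, where adipocyte replicate 2 is the highest at 1.31.

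Because near-identical miRNAs can exchange reads in counting, the paralogs were also tested as sums. The sum of miR-196a and miR-196b was 1071 ± 159 CPM in adipocytes, against 634 ± 122 CPM in preadipocytes (SD, n = 3 each), a log2 difference of 0.76 with an SE of 0.26 (edgeR BH-adjusted p = 0.0966). The sum of miR-10a and miR-10b was 1140.1 ± 172 CPM in adipocytes, against 998 ± 220.1 CPM in preadipocytes, and differed by 0.19 (SE 0.26, edgeR BH-adjusted p = 0.615). Neither sum passed.

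The table places the miRNAs of the miR-99/100 and miR-125 groups, relatives of miR-10 that lie outside the HOX clusters, in the same family as miR-10a and miR-10b. Of 6 tested rows of these relatives, miR-100 rose, at 4660 ± 445 CPM in adipocytes, against 1904 ± 411 CPM in preadipocytes, with a log2 difference of 1.29 ± 0.24 (SE) and a BH-adjusted p of 0.0293 in edgeR, and the other 5 did not pass. The most abundant of them, miR-99a-5p, differed by 0.55 and miR-125a by 0.22. The log2 differences of the 6 ran between -0.49 for miR-99b and 1.57 for miR-99a-3p. The latter row was at a low level, with means of 1.33 CPM in adipocytes and 0.447 CPM in preadipocytes. Those of miR-10a and miR-10b lay within this wide range, which sets them apart from few miRNAs.

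The miRNAs whose pattern was most like that of each HOX cluster miRNA were found by the root mean square distance of centred log2 CPM over the 6 libraries, among 197 other known miRNAs with a mean of at least 10 CPM. Closest to miR-10a were miR-125a (distance 0.09) and miR-493 (0.09), and closest to miR-10b were let-7d (0.16) and miR-125a (0.18). For miR-196a they were miR-218 (0.21) and miR-499 (0.21), and for miR-196b miR-99a-5p (0.15) and miR-218 (0.16). Between the HOX cluster miRNAs themselves, miR-10a and miR-10b were 0.15 apart and miR-196a and miR-196b 0.31. The distance of miR-196b was 0.30 to miR-10b and 0.33 to miR-10a, so miR-196b was about as far from the miR-10 pair as from its own paralog. That of miR-196a was 0.37 to miR-10a and 0.45 to miR-10b. Values of 1 library share its depth and scaling, so these distances are a description only.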

How the data were processed

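Small RNA of 3 adipocyte and 3 preadipocyte samples was measured by sequencing of segments of 18-30 nt, per the labels' protocols. The submitters' processing notes name Bowtie2 without a version. The sources used here give neither genome build nor annotation release, nor how reads matching several miRNAs were assigned. The authors' count columns hold raw, whole-number read counts. The deposited TPM columns are the count divided by 1 constant per library, with no division by length.

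Known and predicted miRNA rows were tested with edgeR 4.0.16 in R 4.3.3 (TMM, filterByExpr, glmQLFit, glmQLFTest, two-sided, BH threshold 0.05), which left 365 known and 49 predicted miRNAs. SE is the log2 difference over the root of F, and the rows of exon, intron, intergenic and repeat reads, which name no gene, stayed out. Their share of the table was 10.2% ± 1.91 in adipocytes and 14.2% ± 7.73 in preadipocytes. A count of 0 allowed up to 0.142 to 0.244 CPM (3 counts), counting error only. Ratios had 0.5 counts added and were compared with exact permutation tests in SciPy 1.17.1. Alternatives used DESeq2 1.42.0 and limma 3.58.1 on log2 of the deposited TPM + 1. The tests were checked on simulated data. Plots were drawn with matplotlib 3.10.9.

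Named beside the HOX cluster miRNAs are the 2 known miRNAs nearest in pattern to each, their relatives in the miR-10 family, and Rfam rows of the same families. Members, lists and tests were chosen with earlier results of these data known. The rule also asked for miRNAs that share a seed with a member, which are not analysed here.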

Additional observations from a re-analysis of the deposited data

Results flagged for a closer look

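The table also holds Rfam rows for the precursor families mir-10 and mir-196, whose own values are not given above, although they are among the 948 rows fitted together and the mir-196 row enters 1 of the 4 ratios behind the adjusted p-values. It is not stated in the sources used here if these rows share reads with the miRNA rows, or which miRNAs of the wider mir-10 family they cover. Both were higher in every adipocyte library than in any preadipocyte library, as were 21.5% of the 948 rows after TMM scaling. The mir-10 row held 15979, 17347 and 18606 reads in adipocytes and 4858, 4712 and 8581 in preadipocytes, or 855 ± 84.9 CPM in adipocytes and 413 ± 99.5 CPM in preadipocytes on the miRNA scale (SD, n = 3 each). The mir-196 row held 1018, 1070.0 and 1203 reads in adipocytes and 235, 240.0 and 554 in preadipocytes, or 54.2 ± 6.33 CPM in adipocytes and 23.2 ± 9.43 CPM in preadipocytes. In an edgeR fit over 948 small RNA rows, added after seeing the data, the log2 differences were 1.32 for mir-10 (SE 0.29, BH-adjusted p = 0.0607) and 1.49 for mir-196 (SE 0.40, BH-adjusted p = 0.0808). Neither passed, in a fit that called 3.48% of its rows. In the same fit miR-196a differed by 1.13, miR-196b by 0.88, miR-10a by 0.53 and miR-10b by 0.47. The median of the tested miRNAs was 0.25 in this fit, against -0.02 in the fit of the 414 known and predicted miRNAs. The differences of this fit are therefore on another scale than the CPM values and the differences given further above. The mir-196 row was 0.0536, 0.0405 and 0.0594 of the summed miR-196a and miR-196b reads in adipocytes and 0.0318, 0.0302 and 0.0458 in preadipocytes, which overlap (exact permutation p = 0.2, BH-adjusted 0.4).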

How the results depend on the processing

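The count of HOX cluster miRNAs past the threshold, 0, was 2 with miRNA library totals and with the totals behind the deposited TPM, 3 with limma on the deposited TPM, 1 with DESeq2, and 0 to 1 without single libraries. With limma, miR-10a (0.83), miR-196a (1.42) and miR-196b (1.20) passed, at a background of 25.6% of miRNAs. With the totals behind the TPM, miR-196a (1.43) and miR-196b (1.18) did, at 21.7%. With miRNA totals the same 2 did, at 1.51 and 1.26 and a background of 23.4%. With DESeq2, miR-196a (0.89) did, at 22%. Without preadipocyte replicate 3, miR-196b (0.83) did, at 31.8%. Upper-quartile factors turned miR-10a (-0.030) and miR-10b (-0.079) negative. Without single libraries, log2 differences ran between -0.0061 and 0.33 for miR-10a, -0.090 and 0.38 for miR-10b, 0.66 and 0.93 for miR-196a, 0.40 and 0.83 for miR-196b, and -1.06 and -0.30 for miR-615, and between -0.033 (without preadipocyte replicate 3) and 0.19 for the log2 ratio of miR-10a to miR-10b. For miR-615 the sign was negative under every alternative that tested it; a minimum of 10 CPM left it out. Over all miRNAs, the 26 calls became 49 (upper quartile), 97 (miRNA totals), 91 (totals behind the TPM), 116 (DESeq2), 106 (limma), 43 (minimum of 10 CPM), 59 (known miRNAs alone), and 1 to 148 without single libraries, the highest without preadipocyte replicate 3. The cause of these changes was not tested.

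The labels do not say whether equal replicate numbers mark paired samples. Deviations from the group means correlated at 0.02, -0.26 and -0.01 for numbers 1, 2 and 3. Unequal numbers gave -0.19 to 0.21, and with 3 libraries per group such correlations cannot decide the question. With the replicate number as a block, 1 miRNA and 0 HOX cluster miRNAs passed, and miR-196a differed by 0.86 (edgeR BH-adjusted p = 0.174).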
